A study of Canis lupus familiaris with 25 samples.

Results

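The 10 cornification and epidermal barrier genes examined here were TGM1, TGM3, TGM5, IVL, CDSN, SPINK5, ALOX12B, ALOXE3, CERS3 and ABCA12. They were taken from the deposited gene count table by their row names, and all 10 were found among its 24532 genes. The dataset held QuantSeq 3′ counts, which come from the 3′ ends of polyadenylated RNA, of 25 archival formalin-fixed, paraffin-embedded (FFPE) tumor samples from pet dogs. It contrasted the benign hepatoid gland adenoma (HGA, n = 10) with the malignant apocrine gland anal sac adenocarcinoma (AGASAC, n = 11 primary tumors), both of which arise beside the anus, and included a sublumbar lymph node metastasis from each of 4 of the dogs with a primary AGASAC (n = 4).

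Dogs with HGA were 8 to 14 years old (4 intact males, 1 neutered male, 2 intact females and 3 neutered females). Dogs with a primary AGASAC were 8 to 12.5 years old and included no intact male (6 neutered males, 2 intact females and 3 neutered females). The 4 dogs with a sampled metastasis (2 neutered males, 1 intact female and 1 neutered female) were 8 to 10 years old. All tumors arose naturally in dogs of various breeds, no treatment was given for the experiment, and no normal perianal skin or gland was analyzed here. Each sample was RNA from a bulk section after removal of adjacent tissue, so fewer cells of a type and less RNA per cell cannot be told apart.

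Cornification is the last step of keratinocyte differentiation in stratified epithelia such as the epidermis. Transglutaminases cross-link proteins such as involucrin into an envelope beneath the plasma membrane, while lamellar granules deliver lipids that become a ceramide-rich matrix between the cells. Proteases and their inhibitors then set the pace at which the junctions between cornified cells are cut and cells are shed. Loss of most of these genes causes ichthyosis or skin peeling in humans.

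Library totals ranged from 1562347 to 6389555 counts in HGA, from 2581453 to 4218340 in primary AGASAC and from 2857541 to 3289546 in metastases. Values are CPM (counts scaled to a common library size of 1e+06) scaled by the trimmed mean of M values (TMM), and a count of 3, used as the floor of detection, was worth 0.543 to 1.84 CPM depending on the library. Intervals and floors of this kind cover counting error only. Summed over 9 keratinocyte markers, such as KRT5 and KRT14, HGA reached 3150 to 12600 CPM, against 58.7 to 219 CPM in primary AGASAC and 62.6 to 126 CPM in metastases, where 4 of the 9 markers were at 0 in all samples. The sum over 8 sebaceous cell markers was 811 to 3320 CPM in HGA, 85.5 to 1930 CPM in primary AGASAC and 138 to 1150 CPM in metastases. The sum over 6 luminal gland cell markers, such as KRT8, ran the other way, at 409 to 731 CPM in HGA, 5390 to 10200 CPM in primary AGASAC and 5250 to 10500 CPM in metastases. Over 10 lymphocyte markers the sums were 0.615 to 86.7, 11.4 to 122 and 51.7 to 65.9 CPM. The keratinocyte and luminal sums separated HGA from AGASAC, while the sebaceous sums overlapped. By median, KRT79 made up most of the sebaceous sum in HGA (1700 CPM, against 0 in both AGASAC groups). PLIN2, a lipid droplet protein of the same list, had medians of 206, 390 and 710 CPM in HGA, primary AGASAC and metastases. HGA 10 was an exception, with 39.1 CPM of KRT79 and 658 CPM of PLIN2. KRT14 and KRT5, with medians of 3370 and 848 CPM, made up most of the keratinocyte sum in HGA. Not every keratinocyte marker differed, since KRT10 had medians of 90.5, 83.2 and 90.5 CPM in HGA, primary AGASAC and metastases. EPCAM, with a median of 504 CPM, made up most of the luminal sum in HGA. There the medians of KRT8, KRT18 and KRT19 were 0, 0.204 and 0.215 CPM. In primary AGASAC the medians of EPCAM, KRT8, KRT18 and KRT19 were 1370, 416, 519 and 1370 CPM. The keratinocyte and luminal sums moved with the tumor type in every comparison between HGA and AGASAC below, and their part in the results was not tested.

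In HGA versus primary AGASAC, TGM5, SPINK5, TGM1 and CERS3 were higher in HGA. TGM5 and SPINK5 were abundant in HGA and at or near 0 in AGASAC, whereas TGM1 and CERS3 were present in both and differed by a few-fold. A gene was called at an adjusted p of at most 0.05 and an absolute log2 fold change (log2FC) of at least 1. By the quasi-likelihood test of edgeR, Benjamini-Yekutieli adjusted, 4 of the 10 genes were called, all 4 higher in HGA, and the other 6 reached the minimum count of the filter in too few samples to be tested. Of the 12070 genes tested, 25.1% were called, and 12.6% were called higher in HGA. A gene that is near 0 in one tumor type passes this filter only through the type that carries it, so the share of called genes among those that passed is not read as a result. The samples of HGA and primary AGASAC did not overlap for 2 of the 10 genes, TGM5 and SPINK5, both higher in HGA, against 9.13% of all tested genes that did not overlap in either direction and 4.37% in that of HGA. The 10 genes include the 6 that were not tested, whereas these shares cover tested genes only. A gene near 0 in AGASAC passes the filter only with enough counts in HGA, which favors a lack of overlap. The count without overlap is therefore not read as a result either.

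**Figure D1:**
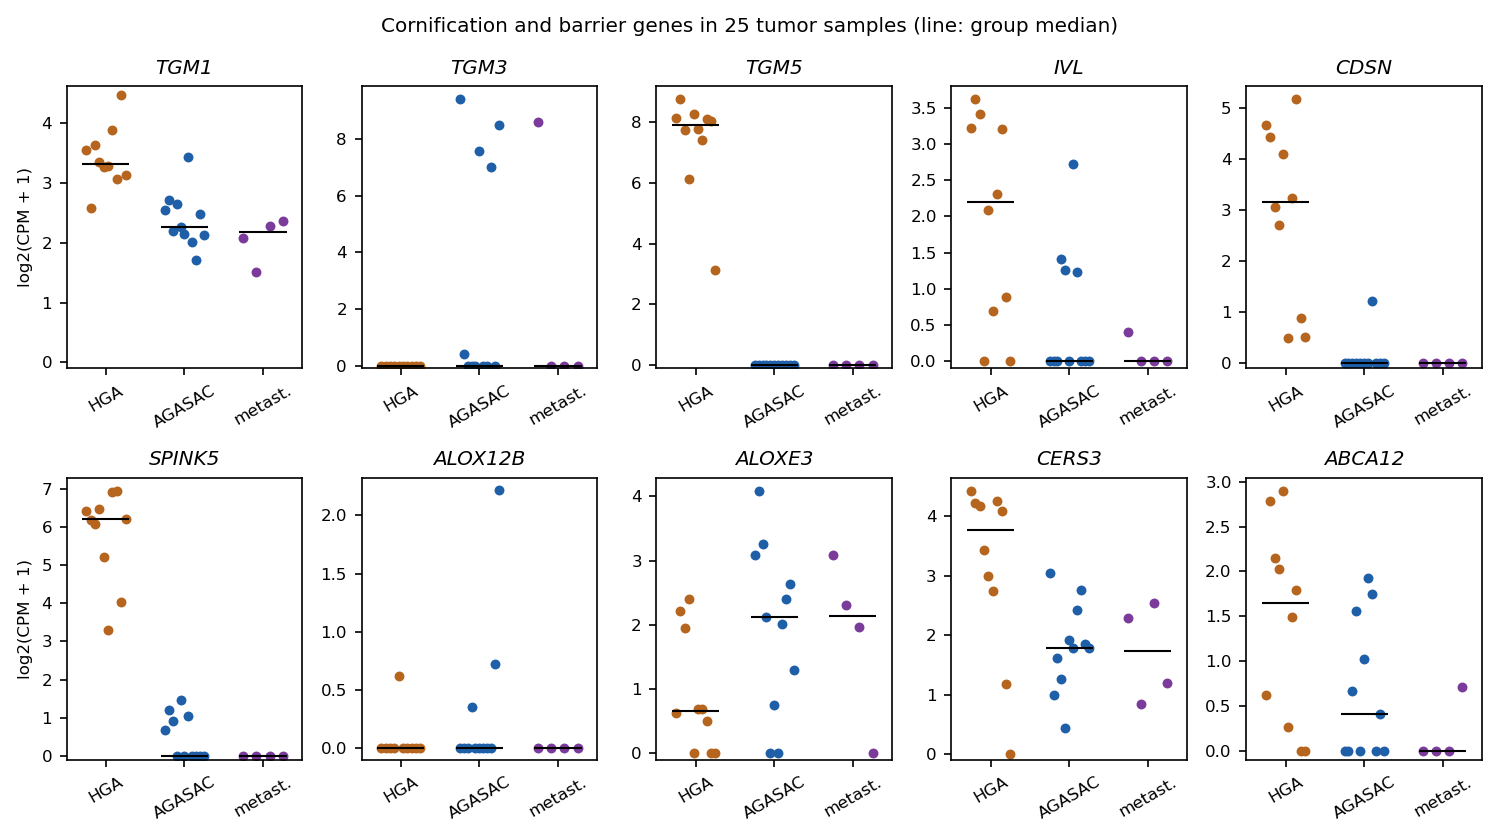
Expression of the 10 cornification and barrier genes as log2(CPM + 1) on the vertical axis in HGA (n = 10), primary AGASAC (n = 11) and AGASAC metastases (n = 4), with 1 point per sample, a line at each group's median and a separate scale in each panel. TGM5 and SPINK5 separate HGA from AGASAC without overlap, and TGM3 is at 0 in all 10 HGA but reaches 680 CPM in a primary AGASAC.

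The 3 transglutaminases each had a different distribution. TGM5, an enzyme of the outer epidermal layers whose loss causes acral peeling skin in humans, ranged in HGA from 7.74 to 426 CPM with a median of 238. It had no count in any of the 15 AGASAC samples. In HGA, TGM5 was 279 CPM in HGA 1, 426 in HGA 2, 213 in HGA 3, 68.9 in HGA 4, 305 in HGA 5, 215 in HGA 6, 167 in HGA 7, 273 in HGA 8, 261 in HGA 9 and 7.74 in HGA 10. HGA 10 thus lay well below the other adenomas but above every AGASAC sample. Mean TGM5 in HGA (222 ± 119 CPM, SD, n = 10) was at least 211-fold higher than the highest floor of a primary AGASAC library and at least 228-fold higher than that of a metastasis library. The fitted log2FC against primary tumors was 12.42 ± 0.88 (SE, standard error; Benjamini-Yekutieli adjusted p = 5e-07, edgeR's quasi-likelihood test), a value that depends on the prior count because AGASAC had none. In batches 5, 6 and 8, the RNA extraction batches that held 2 or more tumors of both types, TGM5 was again without overlap. The lowest HGA value was 68.9 CPM in batch 5, 279 CPM in batch 6 and 167 CPM in batch 8.

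TGM1, the membrane-anchored transglutaminase of the spinous and granular layers, was detected in all 25 samples. It ranged from 4.97 to 21.2 CPM in HGA (median 9.00), from 2.29 to 9.79 CPM in primary AGASAC (median 3.82) and from 1.86 to 4.15 CPM in metastases. HGA 9 had the highest value and AGASAC 7 was the only primary tumor to exceed 5.56 CPM, so HGA and primary AGASAC overlapped. Mean TGM1 was 10.4 ± 4.49 CPM (SD, n = 10) in HGA and 4.50 ± 2.01 CPM (SD, n = 11) in primary AGASAC, a log2FC of 1.23 ± 0.29 (SE; Benjamini-Yekutieli adjusted p = 0.0114, edgeR's quasi-likelihood test). When scaled by library size alone, the log2FC was 0.94 and the call was lost (adjusted p = 0.0949 by the same edgeR test). With RNA extraction batch as a covariate it was 1.24 (adjusted p = 0.0655 by the same edgeR test), and the tumor types overlapped in batches 5 and 6 but not in batch 8.

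TGM3, the transglutaminase of hair follicles and the upper epidermis, ran the other way in part of the carcinomas. It had no count in any HGA, in 6 of 11 primary AGASAC or in 3 of 4 metastases. It reached 680 CPM in AGASAC 1, 192 CPM in AGASAC 6, 128 CPM in AGASAC 9 and 361 CPM in AGASAC 11, and AGASAC 2 had a single count (0.327 CPM). The primary tumors therefore fell far apart, 4 of 11 lying above the floor and the other 7 at or below it. Metastasis 1, from the dog of AGASAC 1, had 391 CPM, while the metastases from the other 3 dogs were at 0 and their primary tumors at or below the floor. TGM3 was not tested because too few tumors expressed it to pass the filter. When all genes were tested without the filter, the log2FC in HGA versus primary AGASAC was -11.56 ± 2.65 (SE; Benjamini-Yekutieli adjusted p = 0.029, edgeR's quasi-likelihood test), a value that depends on the prior count because HGA had none. Mean TGM3 in primary AGASAC (124 CPM) was at least 67.1-fold higher than the highest HGA floor. Both values average over a carcinoma group in which 6 of 11 tumors had no count. In the 4 positive primary tumors TGM5 was at 0, so no sample had counts for both TGM3 and TGM5.

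**Figure D2:**
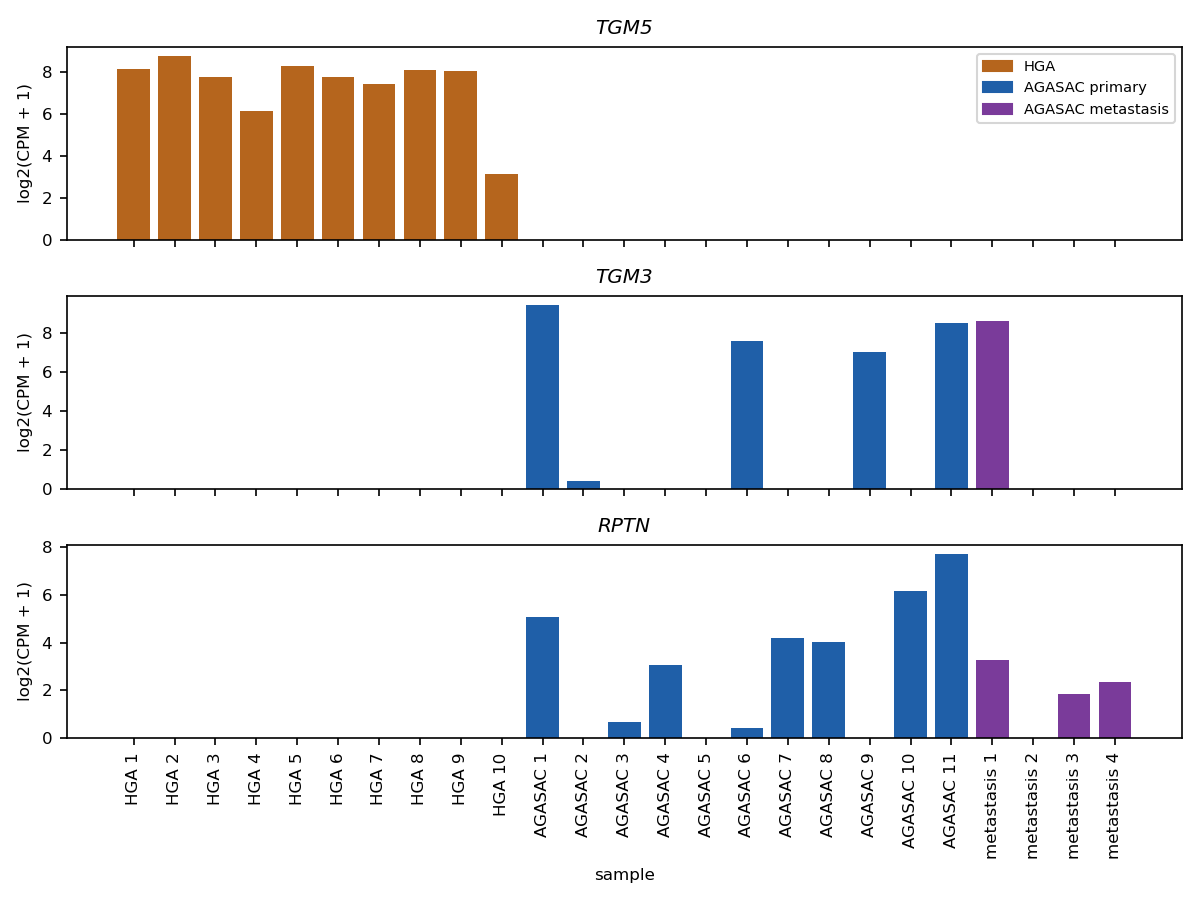
TGM5, TGM3 and repetin (RPTN) as log2(CPM + 1) on the vertical axis in each of the 25 samples along the horizontal axis, with bars colored by group. TGM5 is present in all 10 HGA and absent from all 15 AGASAC samples, TGM3 is high in AGASAC 1, 6, 9 and 11 and metastasis 1, and RPTN is at 0 in all 10 HGA.

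The neighbors of TGM3 and TGM5 in the transglutaminase family gave almost no signal. TGM6 and TGM7, which sit beside TGM3 and TGM5 in the UU_Cfam_GSD_1.0 assembly, stayed at or below 0.904 and 0.204 CPM. TGM2, TGM6 and TGM7 were named after their values were seen. TGM2, the ubiquitous tissue transglutaminase, had counts in every sample, with medians of 2.86 CPM in HGA, 6.54 CPM in primary AGASAC and 35.4 CPM in metastases and wide ranges (0.424 to 19.0, 1.34 to 72.8 and 3.24 to 118 CPM).

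IVL and CDSN encode structural proteins of the cornified cell and were both low. IVL (involucrin), an envelope protein that transglutaminases cross-link, ranged from 0 to 11.3 CPM in HGA (median 3.59), from 0 to 5.59 CPM in primary AGASAC (median 0) and from 0 to 0.324 CPM in metastases. Only 4 of 11 primary tumors had any IVL count, but HGA 4 and HGA 10 had none either, so the groups overlapped. IVL did not pass the filter, and in a test of all genes without it the log2FC was 2.28 ± 0.97 (SE; Benjamini-Yekutieli adjusted p = 0.702, edgeR's quasi-likelihood test).

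CDSN (corneodesmosin), the adhesive glycoprotein of the junctions between cornified cells, had counts in all 10 HGA. It was 24.6 CPM in HGA 1, 20.8 in HGA 2, 7.42 in HGA 3, 5.53 in HGA 4, 16.2 in HGA 5, 0.408 in HGA 6, 8.50 in HGA 7, 35.3 in HGA 8, 0.848 in HGA 9 and 0.43 in HGA 10. AGASAC 8 was the only carcinoma sample with CDSN counts (1.34 CPM, from 4 reads). HGA 6, 9 and 10 lay below that value and below the floor, while the other 7 adenomas lay above. CDSN reached the filter's minimum in too few tumors to be tested. Fitted with all genes, its log2FC was 6.25 ± 0.93 (SE; Benjamini-Yekutieli adjusted p = 8.69e-05, edgeR's quasi-likelihood test).

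SPINK5 encodes LEKTI, the inhibitor of the kallikrein proteases that cut corneodesmosomes and the gene lost in Netherton syndrome. It was 83.6 CPM in HGA 1, 71.9 in HGA 2, 66.7 in HGA 3, 87.9 in HGA 4, 36.1 in HGA 5, 8.78 in HGA 6, 120 in HGA 7, 122 in HGA 8, 15.3 in HGA 9 and 72.2 in HGA 10. Primary AGASAC ranged from 0 to 1.74 CPM (median 0), and no metastasis had a count. Every HGA lay above every AGASAC sample, with HGA 6 and HGA 9 the lowest adenomas. Mean SPINK5 was 68.5 ± 38.9 CPM (SD, n = 10) in HGA and 0.508 ± 0.643 CPM (SD, n = 11) in primary AGASAC. The log2FC was 7.05 ± 0.61 (SE; Benjamini-Yekutieli adjusted p = 2.22e-08, edgeR's quasi-likelihood test). Against the metastases, SPINK5 in HGA was at least 70.4-fold higher than the highest floor. Within extraction batches, the groups did not overlap in batch 5 (lowest HGA 15.3 CPM against a highest AGASAC of 1.05 CPM), batch 6 (36.1 against 0 CPM) or batch 8 (8.78 against 1.74 CPM). Tested within a batch alone, with 2 or 3 tumors a group, the call was lost in batch 5 (log2FC 6.82, adjusted p = 0.0593) and batch 8 (5.75, adjusted p = 0.203) by the same edgeR test.

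The lipoxygenases ALOX12B and ALOXE3 act one after the other on the linoleate of epidermal ceramides, a step needed to attach lipids to the cornified envelope, and their genes are adjacent in the UU_Cfam_GSD_1.0 assembly. ALOX12B was hardly detected. HGA 5 had a single count (0.539 CPM), AGASAC 11 had 15 counts (3.64 CPM), AGASAC 4 and AGASAC 10 had 0.278 and 0.653 CPM, and the other 21 samples had none. A difference between tumor types was not detectable at this depth.

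ALOXE3 was the only one of the 10 genes with a higher median in primary AGASAC than in HGA. It ranged from 0 to 4.30 CPM in HGA (median 0.575), from 0 to 16.0 CPM in primary AGASAC (median 3.34) and from 0 to 7.46 CPM in metastases (median 3.44). The groups overlapped, with AGASAC 2 the highest sample and 3 HGA and 2 primary AGASAC at 0. It did not pass the filter, and in a test of all genes without it the log2FC was -1.88 ± 0.84 (SE; Benjamini-Yekutieli adjusted p = 0.861, edgeR's quasi-likelihood test).

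CERS3 makes the ceramides with very long acyl chains that the epidermal barrier needs. It was 20.6 CPM in HGA 1, 17.6 in HGA 2, 17.1 in HGA 3, 9.84 in HGA 4, 7.01 in HGA 5, 5.71 in HGA 6, 18.2 in HGA 7, 16.0 in HGA 8, 1.27 in HGA 9 and 0 in HGA 10. Primary AGASAC ranged from 0.347 to 7.23 CPM (median 2.45) and metastases from 0.796 to 4.82 CPM (median 2.59). Of the 10 adenomas, 6 exceeded all carcinomas, but HGA 9 and HGA 10 lay below the AGASAC median. Mean CERS3 was 11.3 ± 7.53 CPM (SD, n = 10) in HGA and 2.94 ± 2.06 CPM (SD, n = 11) in primary AGASAC. The log2FC was 1.96 ± 0.54 (SE; Benjamini-Yekutieli adjusted p = 0.0457, edgeR's quasi-likelihood test). This call was borderline and was lost in 16 of 21 fits that each left out 1 tumor, in which the log2FC ranged from 1.83 to 2.17. With the naming series of the samples as a covariate, a fit without AGASAC 4, whose series was not given, the log2FC was 1.21 (adjusted p = 1 by the same edgeR test). Within extraction batches, CERS3 was without overlap in batch 6 but overlapped in batches 5 and 8.

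ABCA12, the transporter that loads lipids into lamellar granules and is mutated in harlequin ichthyosis, was low in all groups. It ranged from 0 to 6.47 CPM in HGA (median 2.14), from 0 to 2.80 CPM in primary AGASAC (median 0.326) and from 0 to 0.639 CPM in metastases. The groups overlapped. In the test of all genes without the filter, its log2FC was 1.45 ± 0.92 (SE; Benjamini-Yekutieli adjusted p = 1, edgeR's quasi-likelihood test).

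Within HGA the barrier genes did not share one order of samples. HGA 6, 9 and 10 had the lowest values of CDSN, and were also among the lowest for IVL (0.612, 0.848 and 0 CPM), CERS3 and ABCA12 (0.204, 0 and 0 CPM). For TGM5, however, HGA 6 and HGA 9 were at 215 and 261 CPM and only HGA 10 was low, whereas for SPINK5 HGA 6 and HGA 9 were low and HGA 10 (72.2 CPM) was at the group's median. For TGM1, HGA 9 was the highest adenoma. HGA 6 had the second largest library (5914236 counts), HGA 9 and HGA 10 had 2491827 and 2525485 counts, and the part of depth was not tested. HGA 9 had the highest DV200, a measure of RNA fragment length, of all samples (92.7%). HGA 10 was the only tumor of its extraction batch and the only HGA in the second of 2 series of sample names, so its low TGM5 and CERS3 cannot be told apart from a batch.

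Markers of suprabasal and cornifying epidermis differed among the adenomas, and those given here were chosen after their values were seen. KRT10, a suprabasal keratin and the partner of KRT1, had counts in all 10 HGA (20.4 to 531 CPM, highest in HGA 10) and was at like levels in primary AGASAC (48.2 to 217 CPM). KRT1, the keratin of suprabasal epidermis, was at 0 in 6 of 10 HGA and above the floor in 3, at 12.2 CPM in HGA 2, 148 CPM in HGA 5 and 38.6 CPM in HGA 7. FLG (filaggrin, the keratin-bundling protein of the granular layer) was highest in the same tumors, at 13.1 CPM in HGA 2, 54.5 CPM in HGA 5 and 8.20 CPM in HGA 7, and was at 0 in 5 of 10. LOR (loricrin, the main envelope protein of the epidermis) was 22.6 CPM in HGA 2, 31.8 CPM in HGA 5 and 6.68 CPM in HGA 7. It was at 0 in only 3 of 10 HGA and above the floor in 4. Neither KRT1 nor FLG had a count in HGA 1, 3, 8, 9 and 10, and TGM5 was 213 to 279 CPM in the first 4 of these and 7.74 CPM in HGA 10. Other cornification RNA, LOR included, was present in some of them. CDSN was 24.6 CPM in HGA 1, 7.42 CPM in HGA 3 and 35.3 CPM in HGA 8, and below the floor in HGA 9 and HGA 10. SPINK5 in HGA 8, at 122 CPM, was the highest of all samples.

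KRT6A and KRTDAP were picked after their values were seen, KRT6A because its levels were the most like those of CDSN, so that their likeness to CDSN is no separate result. KRT6A, a keratin of activated and follicular keratinocytes, was at 0 in HGA 6, 9 and 10 and reached 38.4 CPM in HGA 2, 27.1 CPM in HGA 8 and 15.7 CPM in HGA 1. KRTDAP, a secreted product of differentiating keratinocytes, was 1.43, 0.848 and 0.43 CPM in HGA 6, 9 and 10 and reached 139 CPM in HGA 2. KRT5 and DSG3, other keratinocyte markers, were at least 422 and 32.2 CPM in every HGA. The share of these RNAs that came from adjacent or overlying epidermis was not tested.

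**Figure D3:**
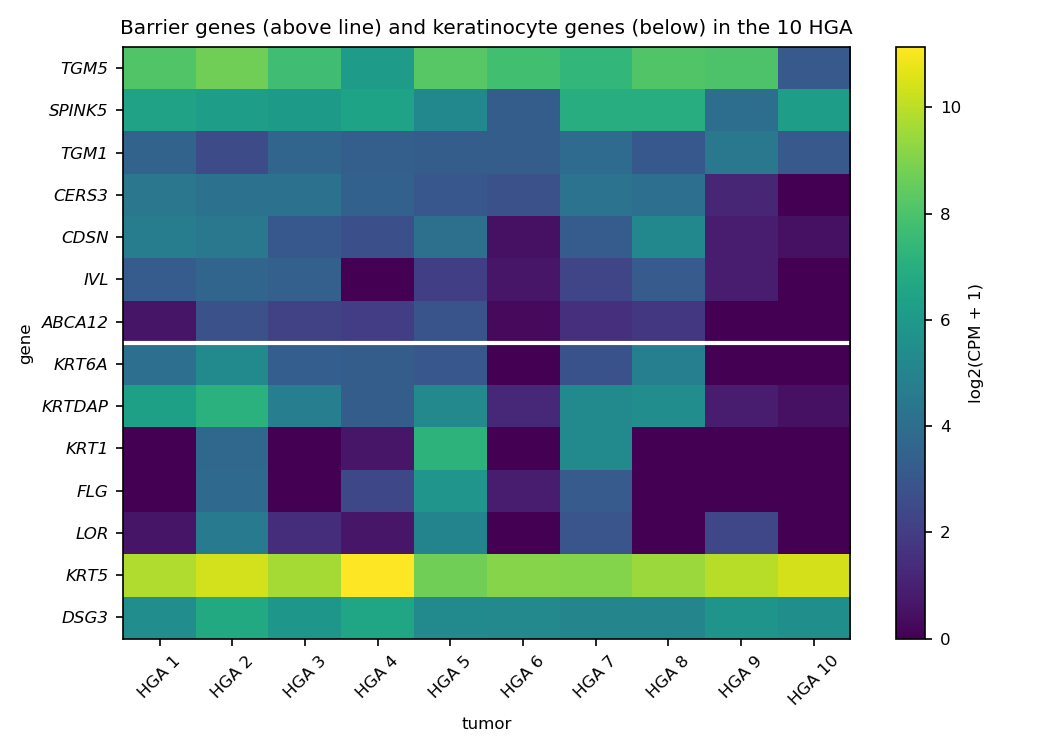
Heat map of 7 of the barrier genes (above the white line) and 7 keratinocyte genes (below it) in the 10 HGA, with 1 column per tumor and color giving log2(CPM + 1). CDSN, KRT6A and KRTDAP are low together in HGA 6, 9 and 10, KRT1 is above the floor only in HGA 2, 5 and 7, and TGM5 is low only in HGA 10.

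In HGA versus metastases, which used the same 10 HGA samples as the comparison above, TGM5, SPINK5 and CDSN were higher in HGA. By the quasi-likelihood test of edgeR, Benjamini-Yekutieli adjusted, 6 of the 10 genes were tested and 3 were called, against 16.1% of the 13195 genes tested and 8.4% called higher in HGA. The 3 called genes had no count in any metastasis and passed the filter only through HGA, so their share is not read as a result. TGM5 had an adjusted p of 0.000194 and SPINK5 of 0.000248 by this edgeR test. CDSN was at 0 in all 4 metastases, so that its mean in HGA (12.0 ± 11.9 CPM, SD, n = 10) was at least 12.3-fold higher than the highest floor (adjusted p = 0.0392, same edgeR test), and this call was lost in 11 of 14 fits that each left out 1 sample.

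TGM1, TGM5, CDSN and SPINK5 were without overlap between HGA and metastases (4 of the 10 genes, against 7.38% of all tested genes in the direction of HGA). The 10 genes include 4 that were not tested, whereas this share covers tested genes only, so the count is not read as a result. For CDSN the lack of overlap rests on HGA 6, 9 and 10, which had counts but lay below the floor, against metastases at 0. TGM1 nevertheless missed the threshold with a log2FC of 1.68 ± 0.45 (SE; adjusted p = 0.0898 in the same edgeR test) beside 1.23 against the primary tumors. CERS3 had a log2FC of 2.09 ± 0.87 (SE; adjusted p = 0.815 in the same edgeR test) beside 1.96 against the primary tumors. IVL had counts in only 1 metastasis and an adjusted p of 0.112 in the same edgeR test.

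The 4 metastases and the 4 primary tumors of the same dogs were compared as groups, without pairing by dog, and none of the 10 genes was called. Of 12629 genes tested by edgeR's quasi-likelihood test, 0 were called (0%) and 145 had an unadjusted p under 0.05, while DESeq2 called 5, none of them a barrier gene. With the dog as a replicate block, edgeR called 1 gene, not among the 10, and 491 had an unadjusted p under 0.05. TGM1 was 4.82, 5.56, 3.56 and 5.28 CPM in AGASAC 1 to 4 and 3.24, 1.86, 3.86 and 4.15 CPM in the matching metastases, thus lower in the metastasis of 3 of 4 dogs (log2FC -0.56 ± 0.41, SE; Benjamini-Yekutieli adjusted p = 1, edgeR's quasi-likelihood test). ALOXE3 was 7.53, 16.0, 8.60 and 3.34 CPM in the primary tumors and 7.46, 3.98, 2.89 and 0 CPM in the metastases. The value was smaller in the metastasis of all 4 dogs, by very unequal amounts (log2FC -1.30 ± 0.86, SE; adjusted p = 1 in the same edgeR test). The log2FC was -0.35 when the metastases were compared with all 11 primary tumors, and ranged from -1.90 to -0.85 when 1 sample was left out. CERS3 was 7.23, 0.98, 2.08 and 1.39 CPM in the primary tumors and 3.89, 0.796, 4.82 and 1.28 CPM in the metastases, with no common order. TGM5 and CDSN were at 0 in all 8 samples of these dogs, and TGM3 was high in both samples of the first dog and in no other.

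Other genes of the pathway were taken from 4 lists (86 genes found in the table, 42 tested). Of the 42, 18 were called in HGA versus primary AGASAC, 13 higher and 5 lower in HGA. Of all tested genes, 25.1% were called, 12.6% higher and 12.5% lower in HGA. A list gene near 0 in either tumor type passed the filter only through the other, so these counts and the medians of the lists are not read as a result. Of 18 cornified envelope and cell envelope genes found, 6 were tested and 3 rose in HGA, with a median log2FC of 1.38 over those tested beside -0.03 over all tested genes. DSG1, the desmosomal cadherin of the upper epidermis, was 183 to 432 CPM in HGA and at most 0.301 CPM in primary AGASAC, at least 278-fold higher. EVPL and PPL, the plakins of the envelope scaffold, had log2FC of 1.21 ± 0.33 and 1.19 ± 0.30 (standard errors). Their Benjamini-Yekutieli adjusted p were 0.0472 and 0.0199 by edgeR's quasi-likelihood test, so the call of EVPL was borderline. The groups overlapped for both.

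Of 19 desquamation proteases and inhibitors found, 5 were tested (median log2FC -0.60). SERPINB5, a serpin of stratified epithelia, rose (29.5 to 180 CPM in HGA, 2.67 to 13.8 CPM in primary AGASAC, log2FC 3.92 ± 0.34, standard error). PRSS8, the membrane protease prostasin, fell (3.01 to 17.6 CPM in HGA, 52.8 to 125 CPM in primary AGASAC, log2FC -3.01 ± 0.24, standard error). Both separated the groups without overlap. KLK5 and KLK7, kallikreins that LEKTI inhibits, were named after their values were seen. Each had counts in 7 of 10 HGA, up to 17.3 and 14.3 CPM, and in no AGASAC sample, and neither passed the filter. Not all kallikreins of the list were like this. KLK14 reached 284 CPM in AGASAC 6 and at most 2.71 CPM in HGA, and KLK13 had no count in any HGA but up to 2.41 CPM in primary AGASAC.

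Of 28 barrier lipid genes found, 17 were tested, 6 rose and 2 fell (median log2FC 0.66). LIPM, an acid lipase of the granular layer, was 126 to 380 CPM in HGA and at most 5.21 CPM in primary AGASAC (log2FC 8.95 ± 0.70, standard error). DGAT2, which makes triglycerides, had a log2FC of 5.69 ± 0.62, ABHD5, a lipase activator, 3.24 ± 0.36, and ASAH1, the lysosomal ceramidase, 2.54 ± 0.37 (standard errors). The 2 that fell were UGCG, which glucosylates ceramides (-1.85 ± 0.36, standard error), and ELOVL1, a fatty acid elongase (-1.22 ± 0.25, standard error). DGAT2, ABHD5 and ASAH1 also act in lipid handling outside the epidermis.

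SPTLC3 and PNPLA1 were named after their values were seen. SPTLC3, a subunit of the enzyme that starts sphingolipid synthesis, was 2.58 to 99.8 CPM in HGA and at 0 in all primary AGASAC. PNPLA1, the transacylase that forms barrier acylceramides, reached 67.5 CPM in HGA and had a single count in primary AGASAC. Neither passed the filter, and HGA 10 had the lowest value of both.

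Of 21 relatives of the barrier genes found, 14 were tested, 3 rose and 2 fell (median log2FC 0.15). The ceramide synthases differed in direction. CERS4 was 71.4 to 2100 CPM in HGA and 9.38 to 56.6 CPM in primary AGASAC, without overlap (log2FC 5.71 ± 0.48, standard error), and CERS6 also rose (1.92 ± 0.41). CERS2, another synthase for long acyl chains, fell (-1.21 ± 0.24), while CERS3 rose as given above. Among the lipid transporters, ABCA1 rose (1.12 ± 0.20) and ABCA13 fell, with at most 0.911 CPM in HGA and a mean of 46.8 CPM in primary AGASAC, at least 25.4-fold higher there than the highest HGA floor.

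**Figure D4:**
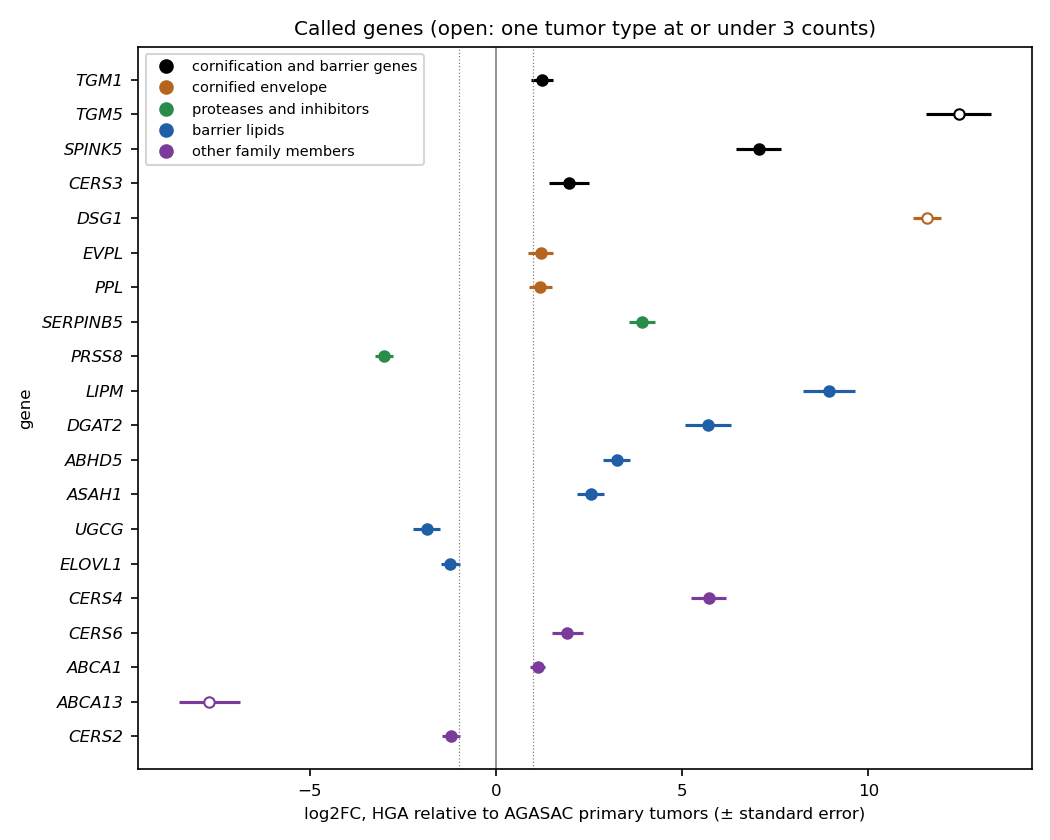
Log2FC of HGA relative to primary AGASAC on the horizontal axis, with bars for the standard error, for the 4 called cornification and barrier genes and 16 called genes of the 4 pathway lists, 1 gene per row. Positive values are higher in HGA, dotted lines mark the log2FC threshold of 1, and open circles mark genes with at most 3 counts in every sample of one tumor type, whose fitted value depends on the prior count.

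RPTN (repetin), an envelope precursor of the S100 fused-type family, was named after its values were seen because it was absent from HGA. It had no count in any HGA, counts in 8 of 11 primary AGASAC and in 3 of 4 metastases, and reached 210 CPM in AGASAC 11, 70.2 CPM in AGASAC 10 and 32.6 CPM in AGASAC 1. AGASAC 11 thus combined the highest RPTN with 361 CPM of TGM3 and the most ALOX12B. TGM3 and RPTN did not always go together, since AGASAC 9 had 128 CPM of TGM3 and no RPTN, and AGASAC 10 had no TGM3.

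Over the 25 samples, the gene whose log2(CPM + 1) was most like that of TGM5 was KRT79 (Pearson r = 0.996), a keratin that ranged from 39.1 to 2430 CPM in HGA with HGA 10 again the lowest. The nearest genes were SCARB1 for SPINK5 (r = 0.956), LOC111095289 for TGM1 (r = 0.872) and RHEB for CERS3 (r = 0.815). For 2 genes that did not pass the filter, looked up afterwards, they were KRT6A for CDSN (r = 0.969) and CNTN5 for TGM3 (r = 0.958). The points share their libraries and the split between the tumor types. CNTN5 was at low counts, with at most 25 in a library, and had counts in AGASAC 1, 6, 9 and 11 and metastasis 1 and in no other sample, the same 5 samples in which TGM3 was above the floor. Because CNTN5 was picked as the gene most like TGM3, this match is no separate result.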

How the data were processed

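Total RNA from FFPE sections was sequenced with QuantSeq 3′ by the authors. Per the submitters' processing notes and the study's methods, reads were trimmed (cutadapt), aligned to CanFam3.1 (STAR) and counted per gene (featureCounts), with a second round on gene ends extended by 2 kb. Multi-mapped reads were shared among their locations, and the strand setting was not given in the sources used here. The authors deposited 1 table with raw counts per gene, which were used here, and normalized counts, a signal scaled by DESeq2 size factors, which were not. The authors' log2 fold change, its standard error, p-value and adjusted p-value, also deposited, were not used. No column of per-sample values was left without a sample (0 unused).

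Groups came from the sample titles. Counts were tested with edgeR 4.0.16 in R 4.3.3 (filterByExpr with a minimum count of 10 and a minimum total of 15, TMM, quasi-likelihood F-test, Benjamini-Yekutieli adjustment over all tested genes), with an adjusted p of at most 0.05 and an absolute log2FC of at least 1. Each comparison was fitted on its own samples, the standard error was the log2FC divided by the square root of F, and the procedure was tested on simulated data. CPM used TMM factors over all 25 samples. A fold against a group at or under 3 counts per library was computed against its highest floor. The genes examined, the lists and the tests were chosen with earlier results of these data known. Genes named were the 10 barrier genes, up to 4 called genes of each list with the largest rise and fall, the gene nearest to each tested barrier gene (mean of at least 1 CPM), and markers and other genes named after their values were seen.

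Metastases and primary tumors of a number came from the same dog, and their deviations from the group means correlated at r = 0.428 to 0.73 in 4 of 4 pairs. No 2 libraries of the same group agreed within sampling noise (lowest chi-square per degree of freedom 12.2), and libraries of different groups were not compared in this way. The labels list separate samples, and p-values measure the spread between them. Alternatives were DESeq2 1.42.0, other normalizations, filters and adjustments, leaving out each sample, and fits within or adjusted for RNA extraction batch and the series of sample names, both taken from the study's sample list. Gene neighbors came from the RefSeq gene table of UU_Cfam_GSD_1.0, where 9 of the 10 genes matched, and no coordinates are given because the builds differ. No sequence search was done.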

Additional observations from a re-analysis of the deposited data

Results flagged for a closer look

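The values of HGA and of metastases, but not of primary AGASAC, were searched for the barrier genes and the named list genes. Among these 41 groups of 4 to 10 samples, 4 held a sample far from the others by Dixon's criterion. Chance gives about 1 in 20 groups if values are normally distributed, which CPM with many zeros are not, so this rate is only a rough guide. TGM3 was 391 CPM in metastasis 1 and 0 in the other 3 metastases. DGAT2 was 290 CPM in HGA 2, above the other adenomas. UGCG was 107 CPM in metastasis 1, below the other 3. ABCA13 was 135 CPM in metastasis 3, above the other 3.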

How the results depend on the processing

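None of the log2FC of the tested barrier genes changed sign under the alternatives run for them (list genes were recounted only), and TGM5 was called in HGA versus primary AGASAC in all 13 that tested it. Of the 10 barrier genes, 4 were called in HGA versus primary AGASAC by the reported test. The number was 2 with library size alone, 2 with batch as a covariate, 2 with naming series as a covariate (without AGASAC 4, whose series was not given) and 2 in series A alone (9 HGA and 3 primary AGASAC), with TGM5 and SPINK5 called each time. It was 1 in batch 5 alone and 1 in batch 8 alone (TGM5), and 3 in batch 6 alone (TGM5, CDSN and SPINK5). With a minimum count of 30 it was 0, since none of the 10 passed the filter. Without the filter 4 were called, TGM3, TGM5, CDSN and SPINK5. In that fit TGM1 and CERS3 lost their calls (adjusted p = 0.0662 and 0.105, edgeR's quasi-likelihood test). DESeq2 called 6, adding TGM3 and CDSN to those of the reported test. Leaving out 1 tumor gave 3 to 4. Scaling by library size alone moved the share of calls higher in HGA over all genes from 50.2% to 32.8% and the median log2FC from -0.03 to -0.33. Of the list genes, 18 were called, against 29 with DESeq2, 28 without the filter, 5 in batch 5 alone, 11 in batch 6 alone and 4 in batch 8 alone, and 16 to 22 when 1 tumor was left out, 22 without HGA 10. Over all genes, 3032 were called, against 262, 637 and 338 in batches 5, 6 and 8 alone, where the groups held 2 or 3 tumors, 2009 with naming series as a covariate and 4508 with DESeq2. Against metastases, 3 of the 10 were called, 5 with DESeq2 and 5 with Benjamini-Hochberg adjustment (TGM1 and IVL added), and 2 to 4 when 1 sample was left out, while Benjamini-Hochberg adjustment raised the calls over all genes from 2124 to 3536. The split of these calls moved from 52.2% to 36.3% higher in HGA with library size alone, and the median log2FC from 0.02 to -0.26. In metastases versus primary tumors 0 to 0 were called when 1 sample was left out.

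HGA and primary AGASAC share replicate numbers but not dogs (correlations of -0.046 to 0.0446, 0 of 10 pairs over 0.1, and none best matched to its own number). A replicate block on these numbers called 2 of the 10 (TGM5 and SPINK5). A replicate block on the dog for metastases versus primary tumors called 0 of the 10, changed no call among them, and called 1 gene over all genes, with 491 at an unadjusted p under 0.05 against 145 without it. TGM1 lost its call in 9 of the 13 alternatives and CERS3 in 10, and the cause was not tested.

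Genes of a few CPM lie near the value of 3 counts (0.543 to 1.84 CPM), which limits IVL, ALOX12B, ALOXE3 and ABCA12. The 4 metastases and the single HGA in the second naming series limit the comparisons that rest on them. Of the samples whose series was given, 9 HGA, 3 primary AGASAC and 4 metastases were in series A. The second series held 1 HGA and 7 primary AGASAC. A difference between HGA and primary AGASAC therefore cannot be fully told apart from a difference between the series.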
